A study of Mus musculus with 12 samples.

Results

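Angiotensin II (Ang II) infused for 1 week was compared with its infusion control in the left ventricle of the mouse, with 1 array a side. The pair was chosen by its labels, and it makes up 2 of the 12 arrays of the series. Both arrays held total RNA of Balb/c mice, which the series text gives as 6 to 8 weeks old. Treated mice received Ang II at 2 mg/kg/day, and control mice received saline through an osmotic minipump. The other 10 arrays came from transverse aortic constriction (TAC) at 1 day, 1 week and 1 month and from myocardial infarction (MI) at 1 week and 1 month, each with a sham-operated control. At 1 week the TAC sham and the MI sham serve as same-time controls, and they had the operation without constriction or ligation, whereas the infusion control received a pump. Whether an array held 1 animal or a pool is not stated. No group has a replicate, so a ratio of 2 arrays carries no test, and its size is read against differences between control arrays.

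Ang II is the active peptide of the renin-angiotensin system. It acts mainly through the type 1 receptor, constricts arteries, stimulates aldosterone release and, given for days, raises blood pressure. In the heart it is known for growth of cardiac myocytes, with a return of fetal genes such as those of natriuretic peptides and the slow myosin, and for matrix deposition by fibroblasts.

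The trimmed mean signal, the array's average brightness, was 106 on the Ang II array and 107 on its control before scaling, against 105 to 131 over the 12 arrays. The actin 3' to 5' ratio, a measure of RNA integrity, was 1.18 on the Ang II array, the lowest of the series, and 1.25 on its control, with a highest value of 1.33. Myh6, the main myosin of the adult ventricle, stood at a signal of 14476 with Ang II and 14974 in the control, and Myl2, the ventricular myosin light chain, at 13219 and 13242, so both arrays carried the markers of their labelled tissue. The atrial light chains Myl7 (1030 and 840) and Myl4 (967 and 942) were also present. Their highest values on the 5 other control arrays were 535 and 495, so both arrays of the Ang II series stood above every sham in these atrial genes.

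Gene by gene, the Ang II array was closer to its control than control arrays of the same time were to each other. Over the 6995 well measured genes, those with a mean signal above 100 over the 12 arrays, the SD of the log2 ratio was 0.22 for Ang II over its control. The same SD was 0.28 for the TAC sham over the MI sham at 1 week, a pair that shares no array with the Ang II comparison, and 0.30 and 0.33 for the Ang II control over the MI and TAC shams. It was 0.33 for TAC and 0.50 for MI at 1 week over their shams. A log2 ratio within 0.25 of 0 was seen for 79.3% of well measured genes with Ang II and for 64.3% to 68.6% in the 4 control pairs. Every control pair joins arrays of different models, whereas the Ang II pair lies within one, so differences between models and within them cannot be told apart here. The 5' to 3' ratio of the dap control transcript, for example, was 0.488 and 0.493 in the Ang II pair, 0.279 and 0.297 in the TAC pair and 0.195 and 0.211 in the MI pair at 1 week.

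**Figure D1:**
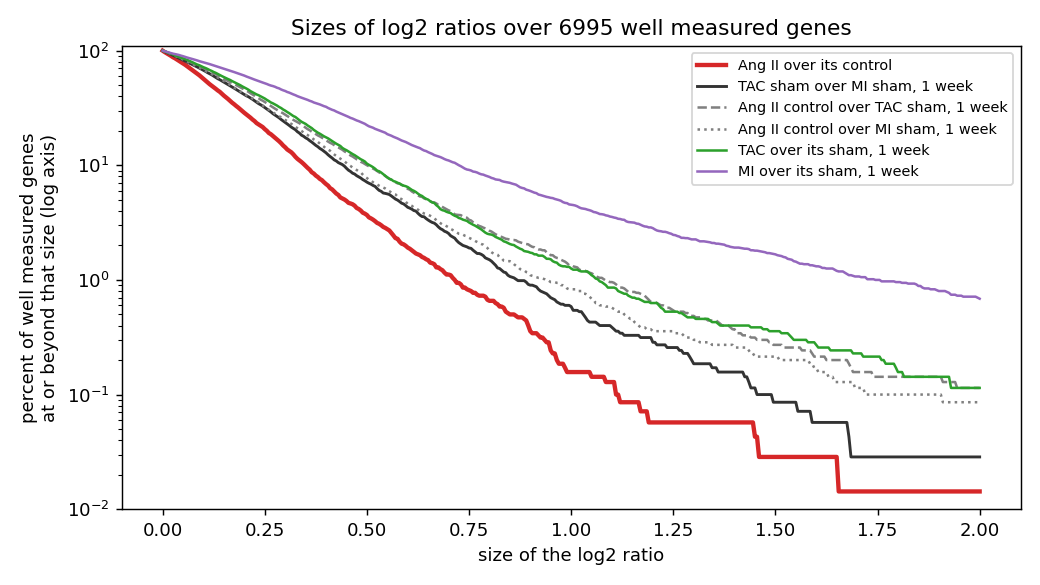
Percent of the 6995 well measured genes (log axis) whose log2 ratio reaches at least the size on the horizontal axis, for Ang II over its control, 3 control pairs at 1 week and the TAC and MI comparisons at 1 week. The line of Ang II over its control lies below those of the control pairs, whose SDs are 0.28 to 0.33 against 0.22.

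The count of 2-fold genes asked for a log2 ratio of 1 or more in either direction, a brighter signal above the median of all values (25.9) and an Ang II array outside all 6 controls. Of 11624 genes compared, 110 were 2-fold higher (0.946%) and 90 were 2-fold lower (0.774%), 200 in all. Under the same limits, the 8 comparisons between same-time controls gave 244 to 354 genes, although there the first array was asked to lie outside the other controls alone, which is easier. Most of the 200 were dim. Of the 110 higher genes 3 had a mean signal above 100, and of the 90 lower genes 2, while the median mean signal was 27.8 in the higher and 27.9 in the lower set against 143 over all genes compared. The 3 were Nmrk2, Cilp and Postn, and the 2 were Hspa1b and Sec24b. The second, dimmer probe set of Sec24b gave a log2 ratio of -0.04. With 16 added to each signal in place of the floor, 33 genes were 2-fold higher and 29 lower.

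The Ang II array was also fitted against the 3 controls at 1 week with limma, which gives 2 residual degrees of freedom and assumes that the lone Ang II array varies like the controls. No gene passed an adjusted p of 0.05 (0 of 11624, 0%), and 371 genes had an unadjusted p under 0.05. Leaving out its own control, however, 36 genes were called (8 higher, 28 lower), and leaving out the TAC sham 5 were. The smallest p among higher genes belonged to Col8a1 (0.81 ± 0.17, SE), Myh7 (1.29 ± 0.27), Sema4d (1.36 ± 0.29), Synpo2l (0.81 ± 0.18) and Sln (1.37 ± 0.31), followed by Mgp (0.70 ± 0.16), Sparc (0.65 ± 0.15), Thbs4 (0.87 ± 0.20), Sftpc and Pld1. Among lower genes it belonged to Retnla (-2.02 ± 0.33), Efemp1 (-1.85 ± 0.34), Siah2 (-1.31 ± 0.26) and Ltbp1 (-0.97 ± 0.22), followed by Zfp316, Batf, Smarca1, Rnasek, Gbp3 and Ift81 (-0.55 ± 0.13). Sema4d (183 with Ang II, 61.0 to 188 over the 6 controls) and Gbp3 (93.1, 70.8 to 269) lay inside the 6 controls. Dimmer probe sets of Pld1 gave log2 ratios of -0.38 and -0.12 over the own control, against 0.99 in the one used. The adjusted p rounds to 1 for each of these 20 genes in limma.

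For the well measured genes a lower size, 1.5-fold, was used, again with the Ang II array outside all 6 controls. By this rule 51 genes were higher (0.729%) and 28 were lower (0.4%). With the mean of the 3 controls at 1 week as the control, 43 were higher and 46 lower, and with the mean of the 2 shams 76 and 60. The 79 genes compare with 153 to 299 in the 8 control comparisons, 399 for TAC and 1039 for MI at 1 week. Of the 51 higher genes, 48 had a ratio larger than every difference between the 3 controls at 1 week, the exceptions being Nppa, Enho and 3110040M04Rik. Of the 28 lower genes 23 did, the exceptions being Hspa1b, Zmat1, Gfpt2, Fbrsl1 and Noct. Both counts are partly fixed by the rule. A higher gene whose own control was the lowest of these 3 controls must be counted, as must a lower gene whose own control was the highest. Matrix genes, fetal and hypertrophy genes and Nmrk2 led the higher set, and they are described in turn.

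The collagens and matrix list had the highest median of all lists with at least 4 measured members. Its 36 measured members had a median log2 ratio of 0.48, against -0.01 over all genes and at most 0.23 in size in the 4 control pairs. The Ang II array lay above all 6 controls in 15 members and below them in 1 (Thbs2), against 13.9% and 11.9% of all genes compared. The ratio was above 0 in 31 of 36. Against the mean of the 2 shams the median was 0.27, and 2 listed genes, Fbn1 and Spp1, had no probe set with that symbol alone.

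Col8a1, a short chain collagen of vessels and stressed matrix, had the clearest separation among the collagens. Its signal was 701 with Ang II, 379 in its control, 420 in the TAC sham and 401 in the MI sham at 1 week, with 312 to 420 over the 6 controls. The Ang II array was thus 1.85-fold above its control (log2 ratio 0.88), while the 3 controls at 1 week differed by at most 0.15. A pair of dimmer probe sets of Col8a1 gave 0.87 and 1.14. The same picture held for Thbs4, a thrombospondin of the matricellular group, with 321 against 185 in its control, 163 and 180 in the shams, and 137 to 185 over the 6 controls (0.79). Bgn, the proteoglycan biglycan, read 2502 against 1616, 1700 and 1819 (0.63), and Sparc, a collagen-binding matricellular protein, read 3466 against 2496, 2047 and 2123 (0.47). In these 4 genes the Ang II array lay above all 6 controls, and its ratio was larger than any difference between the 3 controls at 1 week. For Col8a1 and Bgn the second follows from the first, since their own control was the lowest of the 3. For Thbs4 and Sparc the own control was the highest of the 3.

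Postn, the periostin of activated fibroblasts, had a higher ratio and less even controls. Its signal was 1222 with Ang II, 591 in its control, 645 in the TAC sham and 916 in the MI sham (log2 ratio 1.05), so that the MI sham came nearest. Ccn2, the connective tissue growth factor, read 1664 against 896, 713 and 1135 (0.89). Cilp, a matrix protein of fibroblasts, read 192 against 84.0, 167 and 96.8 (1.19), where the TAC sham was only slightly under the Ang II array. Mfap4, a microfibril protein, was dim, at 102 against 16.6, 22.4 and 43.4 (2.63). Of its other controls 2 were at the floor of 4.54, so the size depends on the control taken.

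The main fibrillar collagens did not separate from the controls. Col1a1, a chain of type I collagen, read 585 with Ang II and 309 in its control (log2 ratio 0.92), but 545 and 690 in the shams. Col1a2, the other chain of type I collagen, read 1505 against 880, with 1305 and 1556 in the shams, and Col3a1, of type III collagen, read 3251 against 2221, with 3292 and 3655. For these genes the ratio went with a low own control, and the Ang II array lay inside the range of the 6 controls. Collagens of types V and VI did lie above all 6 controls, namely Col5a1 (0.54), Col5a2 (0.80), Col6a1 (0.49), Col6a2 (0.46) and Col6a3 (0.70). Mgp, an inhibitor of matrix calcification, read 2850 against 1842, 1518 and 1919 (0.63).

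Of the 29 measured genes of matrix remodelling and TGF-beta signalling, 5 lay above and 3 below all 6 controls, against 13.9% and 11.9% of all genes compared. The median was 0.23 over the own control and 0.10 over the 2 shams, with at most 0.19 between controls. Tgfb2, a TGF-beta ligand, read 127 against 68.7, 74.3 and 49.7 (log2 ratio 0.89), though the dimmest of its other probe sets gave -0.80. Ltbp1, which holds latent TGF-beta in the matrix, was lower, at 79.7 against 153, 155 and 160 (-0.94), a gene in which the 3 controls at 1 week differed by at most 0.07. The 21 fibroblast and myofibroblast markers had a median of 0.34 over their own control, but 0.06 over the 2 shams, and the control pairs differed by up to 0.33. Of them, 7 lay above all 6 controls, and Scara5, a receptor of resting fibroblasts, lay below, at 235 against 359, 542 and 457. The summed signal of the list was 24344 with Ang II, 20138 in its control and 20138 to 23970 over the 6 controls. In whole ventricle, more cells of a type and more RNA per cell cannot be told apart.

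The fetal and hypertrophy list had 23 measured members with a median log2 ratio of 0.35, against at most 0.10 in size between controls. In all, 9 members (39.1%) lay above all 6 controls and none below, against 13.9% and 11.9% of all genes compared. The ratio was above 0 in 18 members. Against the mean of the 2 shams the median was 0.30. Taking each gene's mean over its probe sets in place of the brightest one, the median came to 0.15.

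Myh7, the slow beta myosin heavy chain of the fetal ventricle, read 1904 with Ang II, 1024 in its control, 815 in the TAC sham and 564 in the MI sham (1.86-fold, log2 ratio 0.90), with 564 to 1356 over the 6 controls. The Ang II array was the highest, but the control arrays at 1 week themselves differed by up to 0.86. Nppa, the atrial natriuretic peptide, read 5102 with Ang II, 3075 in its control, 1567 in the TAC sham and 1357 in the MI sham. Here the infusion control was already the highest of the 6 controls. The log2 ratio was therefore 0.73 over the own control and 1.81 over the mean of the 2 shams. Sln, the sarcolipin of atrial myocytes, behaved the same way, with 493 against 276, 156 and 162 (0.84). The atrial light chains given above moved with these values between series (Myl7 0.29 and Myl4 0.04 over their own control, 1.17 and 1.09 over the shams). Of the 10 measured atrial genes, 6 lay above all 6 controls and 1 below, against 13.9% and 11.9% of all genes compared. The ratio was above 0 in 8 of them. The potassium channel genes Kcnj3 (-0.45) and Kcnj5 (-0.43, with 0.18 in a dimmer probe set) went the other way. The summed atrial signal, which includes Nppa and Sln themselves, was 8356 with Ang II, 5972 in its control and 3254 to 5972 over the 6 controls. The part of atrial tissue in the Nppa and Sln values was not tested.

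Nppb, the B-type natriuretic peptide, did not stand out, at 6760 against 4711, 6251 and 6152, since another control read 7278. Fhl1, a LIM protein that binds titin, read 3350 against 2083, 2569 and 2085 (0.69) and Mybpc2, the fast-type myosin binding protein C, 378 against 226, 237 and 329 (0.74). Synpo2l, a Z-disc protein outside the list, read 3638 against 2370, 1708 and 2210 (0.62), with 0.07 and 2.21 in its other probe sets. Acta1, the skeletal alpha-actin (0.15), and Csrp3, the muscle LIM protein (0.09), lay above all 6 controls by small margins. Ankrd1, a stretch-responsive titin-binding protein, read 11419 against 10145 (0.17), inside the controls.

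**Figure D2:**
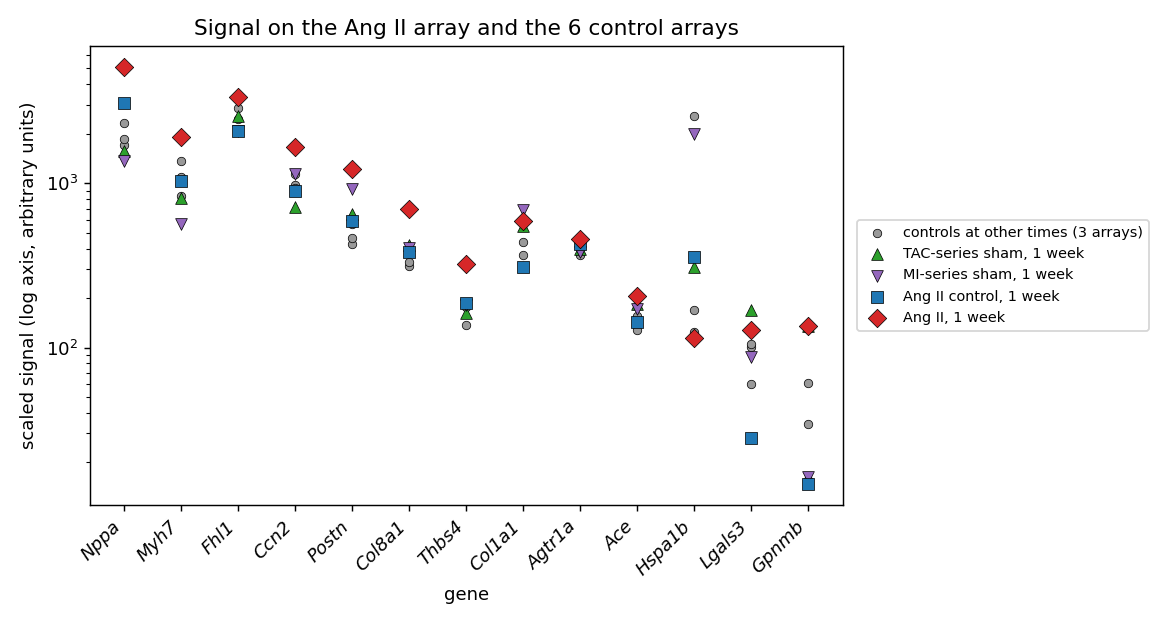
Scaled signal (log axis) of 13 genes on the Ang II array, its saline control, the 2 shams at 1 week and the 3 controls at other times; each point is 1 array. Col8a1 and Thbs4 show the Ang II array apart from tightly grouped controls (701 against 312 to 420, and 321 against 137 to 185), while Col1a1 and Lgals3 show it inside the controls with a low own control.

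Promoter sequences are printed for 4 higher genes of the contractile and matrix groups, Nppa, Myh7, Fhl1 and Thbs4, because Myh7, Fhl1 and Thbs4 hold letters known as sites of muscle and stretch-related factors and Nppa holds those of a core promoter element. Each is the 250 bases before the transcription start in RefSeq (GRCm38.p6), read 5′ to 3′ on the strand of the gene. The intervals are chr4:148000472-148000721 (plus strand) for Nppa, chr14:54994627-54994876 (minus strand) for Myh7, chrX:56779433-56779682 (plus strand) for Fhl1 and chr13:92794819-92795068 (minus strand) for Thbs4. For Myh7 and Fhl1, the first of 2 listed windows was taken. Capitals mark a TATAAA in Nppa, a GGAATG in Myh7, a CArG box in Fhl1 and, in Thbs4, 2 overlapping matches to GGAATG on the opposite strand.
Nppa: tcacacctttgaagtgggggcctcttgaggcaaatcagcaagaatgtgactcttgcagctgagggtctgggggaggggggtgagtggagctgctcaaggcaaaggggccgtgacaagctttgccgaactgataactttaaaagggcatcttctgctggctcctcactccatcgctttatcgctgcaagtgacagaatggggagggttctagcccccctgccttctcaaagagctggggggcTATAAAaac
Myh7: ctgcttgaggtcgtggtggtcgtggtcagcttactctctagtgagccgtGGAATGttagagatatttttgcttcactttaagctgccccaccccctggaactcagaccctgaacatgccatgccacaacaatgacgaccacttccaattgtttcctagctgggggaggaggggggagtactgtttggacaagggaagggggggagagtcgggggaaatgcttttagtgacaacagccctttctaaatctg
Fhl1: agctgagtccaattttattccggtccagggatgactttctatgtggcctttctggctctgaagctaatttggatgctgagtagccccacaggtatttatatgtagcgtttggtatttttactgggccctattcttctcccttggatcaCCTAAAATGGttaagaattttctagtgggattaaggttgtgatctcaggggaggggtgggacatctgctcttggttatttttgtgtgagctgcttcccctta
Thbs4: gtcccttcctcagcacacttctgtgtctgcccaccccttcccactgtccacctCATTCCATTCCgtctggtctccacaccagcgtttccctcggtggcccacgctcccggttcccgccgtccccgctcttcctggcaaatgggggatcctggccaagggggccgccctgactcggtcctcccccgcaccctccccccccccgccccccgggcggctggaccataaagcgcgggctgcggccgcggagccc
The GGAATG letters, the core bound by TEAD factors, were searched on both strands and start at -201 in Myh7, where -1 is the base before the start. The CArG box, the site of serum response factor, starts at -102 in Fhl1, and TATAAA, searched on the gene's strand only, at -9 in Nppa. Of the 51 higher genes 38 had a window, and 9 of these held GGAATG (23.7%), against 10.6% of the 9382 compared genes with a window and 12.6% of all 27025 windows. They were Ccn1, Fibin, Mybpc2, Myh7, Myl1, Otulin, Rspry1, Tfb1m and Thbs4. Of the 22 lower genes with a window, 1 held it. The CArG box was in 1 of 38 (1.17% of compared genes), the AP-1 letters TGANTCA on both strands in 3 of 38 (4.20%) and TATAAA in 4 of 38 (4.01%). These are matches of letters and describe the windows only.

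Nmrk2, a muscle kinase that makes the NAD precursor from nicotinamide riboside, had the highest ratio of the well measured higher genes. It read 182 with Ang II, 66.6 in its control, 92.1 in the TAC sham and 146 in the MI sham (2.73-fold, log2 ratio 1.45). The Ang II array was highest and the own control lowest, and the controls at 1 week differed by up to 1.13. Other well measured higher genes were Tnfrsf12a, the receptor of the cytokine TWEAK (0.98, with 0.28 in its other probe set), Meox1, a transcription factor of activated fibroblasts (0.95), Frzb, a secreted Wnt inhibitor (0.90), Ptger4, a prostaglandin E2 receptor (0.87), Ankrd23, a stretch-responsive titin-binding protein (0.76), and Igf1, the insulin-like growth factor (0.66). In these 6 genes the own control read lower than both shams. Over the mean of the 2 shams the ratios were 0.27 for Tnfrsf12a, 0.71 for Meox1, 0.22 for Frzb, 0.39 for Ptger4, 0.38 for Ankrd23 and 0.18 for Igf1.

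Among the lower genes, Hspa1b, an inducible chaperone of the Hsp70 family, read 113 with Ang II and 357 in its control (log2 ratio -1.65), but its controls ran from 124 to 2551, so the difference is smaller than that between controls. Its near-identical copy Hspa1a read 97.2 against 173 (-0.83), inside the controls, and the probe sets may not separate the copies. Ift81, a protein of ciliary transport, differed by at most 0.13 between the controls at 1 week, and it read 1518 with Ang II against 2296, 2093 and 2284 (-0.60), and its second probe set also gave -0.60. Aqp6, a water channel, read 490 against 800, 564 and 638 (-0.71), with -0.86 and -0.45 in its other probe sets. Retnla, a secreted protein of alternatively activated macrophages and fat, was dim, at 26.0 against 85.7, 138 and 98.5 (-1.72). Sec24b, a vesicle coat protein, read 79.8 against 172, 97.7 and 115 (-1.11), but its second probe set showed almost no difference (73.9 against 76.1, -0.04).

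Genes of the renin-angiotensin-aldosterone system itself differed little. The 13 measured genes had a median of -0.11 over the own control and 0.08 over the 2 shams, against at most 0.12 between controls. Agtr1a, the type 1 receptor, read 457 with Ang II, 428 in its control, 396 in the TAC sham and 380 in the MI sham (0.10), above all 6 controls by a small margin. Ace, the converting enzyme, read 205 against 144, 184 and 171 (0.51), where the highest control was 201 and a second probe set gave 0.06. Agtrap, which promotes internalization of the type 1 receptor, read 91.0 against 137, 92.2 and 136 (-0.59), but its second probe set went the other way (0.42). Enpep, the aminopeptidase that cleaves Ang II (-0.30), and Arap1, an adaptor protein (-0.14), also lay below all 6 controls. Nr3c2, the mineralocorticoid receptor, read 119 against 171 (-0.53), inside the controls, and Sgk1, a kinase induced by aldosterone, read 935 against 938. The genes Agt, Agtr1b, Agtr2, Mas1, Ctsg and Hsd11b2 were below the signal limit, and Ren1 and Lnpep had no probe set with that symbol alone.

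Among 24 measured genes of vasoactive peptides and vascular tone the median was 0.12, against at most 0.17 between controls. In all, 7 members (29.2%) lay above all 6 controls and 1 below, against 13.9% and 11.9% of all genes compared. Aplnr, the apelin receptor of endothelium, read 1392 against 983, 1013 and 812 (0.50), and its second probe set gave 0.49. Ece1, which makes endothelin, read 378 against 290, 264 and 255 (0.38), and Ptgis, the prostacyclin synthase, 376 against 295, 367 and 338 (0.35). Adm, the vasodilator adrenomedullin, was dim, at 90.3 against 56.4, 49.3 and 72.8 (0.68), with -0.22 in its second probe set. Ednrb (0.13), Apln (0.28) and Ramp2 (0.00) were above all 6 controls by small margins. Corin, the protease that activates natriuretic peptide precursors, read 1440 against 1611, 1531 and 1517 (-0.16), below all 6. Edn1, endothelin 1 itself, read 50.8 against 38.1, 70.4 and 73.0.

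Macrophage genes gave the highest ratios but not the most separate ones. Mmp12, the macrophage elastase, had the highest 2-fold ratio of all (3.76), at 62.2 with Ang II and 4.60 in its control, with 54.3 in the TAC sham. Gpnmb, a glycoprotein of lipid-laden macrophages, read 136 against 14.8 (3.20), while the TAC sham read 136 and the MI sham 16.3. Lgals3, galectin 3, read 128 against 28.2 (2.18), with 170 and 87.3 in the shams, so the Ang II array lay inside the controls. In each of these the own control was at or near the lowest of the 6 and a sham came close to or above the Ang II array. Ccr2, the receptor of recruited monocytes, read 57.9 against 14.7, 38.8 and 23.7 (1.98), and Trem2, a lipid receptor of macrophages, 42.3 against 5.77, 25.4 and 24.3 (2.87). Both lay above all 6 controls, though a dimmer probe set of Trem2 went the other way (21.4 against 32.6, -0.61).

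Over the 26 measured macrophage and monocyte markers the median was 0.11 over the own control and -0.40 over the 2 shams, and control pairs differed by up to 0.84. Of these, 3 members lay above all 6 controls and 4 below, against 13.9% and 11.9% of all genes compared. The defining markers Csf1r (1081 against 990), Adgre1 (99.2 against 95.4) and Cd68 (124 against 88.2) were inside the controls. C1qa, of complement, read 409 with Ang II and 450 in its control but 893 and 840 in the shams, and Fcer1g, an Fc receptor chain, read 64.9 against 99.0 (-0.61). The summed signal of the list was 4759 with Ang II, 4235 in its control and 4235 to 7278 over the 6 controls. Across genes with a 2-fold ratio whose Ang II array lay inside the controls, 89 higher and 53 lower, the own control was the lowest of the 6 in 62 and the highest in 36. Among the 2-fold genes with the Ang II array outside the controls, it was the lowest in 50 of 110 higher genes and the highest in 43 of 90 lower genes. Over all 11624 genes compared, the own control was the lowest in 1583 and the highest in 1894. A 2-fold ratio over the own control itself favours an own control at the far end, so these counts are partly set by the selection. With the Ang II array inside the controls, the largest ratios on the higher side were those of Tgm3 (3.20), Mir138-2 (3.13), Zc2hc1c (2.73), Nkd1 (2.70) and Syt8 (2.59). On the lower side they were those of Actl7b (-3.71), Flt3 (-1.97), Ifi44l (-1.93), Afmid (-1.81) and 1700036A12Rik (-1.80). The own control was at the floor for Tgm3, Mir138-2 and Nkd1, and the Ang II array was for Actl7b, so the size of these ratios is set by the floor.

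The remaining 2-fold genes with the highest ratios were Lrrc18, Ccdc136, Gm13238, Cyth4, Sftpc, Clba1, Nrxn3, Rep15, Neil3, Zc2hc1b and Slc26a11, with ratios from 2.25 to 3.11. The lowest were Cphx3, Crybg1, Smarca1, Batf, Fgf11, Zfp316, Tmem35b, Greb1l, Ntn5, Tbx1, Slc43a1, Id4, Scml4, Slc16a7 and Ntrk2, from -3.31 to -2.14. For Clba1 and Id4, other probe sets only slightly dimmer than the one used went the other way. Of the 30 highest and lowest together, 28 had a brighter signal under 100 and 6 had a value at the floor, which sets the size of a ratio: Gm13238, Clba1, Crybg1, Fgf11, Tmem35b and Tbx1. Sftpc, a lung surfactant protein, read 99.8 against 13.7, while Sftpb, another surfactant protein, read 18.7 against 24.5, and the other 13 genes listed for neighbouring tissues were below the signal limit.

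Genes of fuel use and contraction stayed near 0 as groups. The median was -0.06 for 39 genes of oxidative phosphorylation and the TCA cycle (5 above and 3 below all 6 controls), -0.05 for 32 genes of fatty acid oxidation (4 and 3), -0.06 for 25 of glucose metabolism (1 and 2) and -0.00 for 20 sarcomere genes (3 and 3). Between controls these medians reached 0.14, 0.14, 0.13 and 0.11. Over all genes compared, 13.9% lay above and 11.9% below all 6 controls. At 1 week the same lists had medians of -0.34, -0.47, -0.21 and -0.21 with TAC and -0.38, -0.52, -0.14 and -0.21 with MI. Single members did stand apart. Ppara, the nuclear receptor of fatty acid use, read 297 against 425, 379 and 387 (-0.52), with -0.41 and -0.27 in its other probe sets. Ucp3, a mitochondrial carrier, read 166 against 119, 120 and 119 (0.48), and Pdk4, which limits pyruvate entry, read 3506 against 2634, 2454 and 3362 (0.41).

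For 19 genes of ketone and branched-chain amino acid use the median was -0.13 with 0 above and 5 below all 6 controls, and for 21 genes of calcium handling and ion channels it was -0.13 with 1 above and 5 below, where 13.9% and 11.9% of all genes compared were above and below. Over the mean of the 2 shams these medians were 0.04 and -0.06. Control pairs reached 0.15 and 0.10, and TAC and MI at 1 week -0.49 and -0.54 for the first list and -0.32 and -0.30 for the second. Atp2a2, the pump that refills the sarcoplasmic reticulum, read 11223 against 11258, and Ryr2, its release channel, 3330 against 3752, 4107 and 4058 (-0.17), the Ang II array being lowest. Kcnj3, a subunit of the acetylcholine-activated potassium channel, read 154 against 211, 178 and 226 (-0.45).

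**Figure D3:**
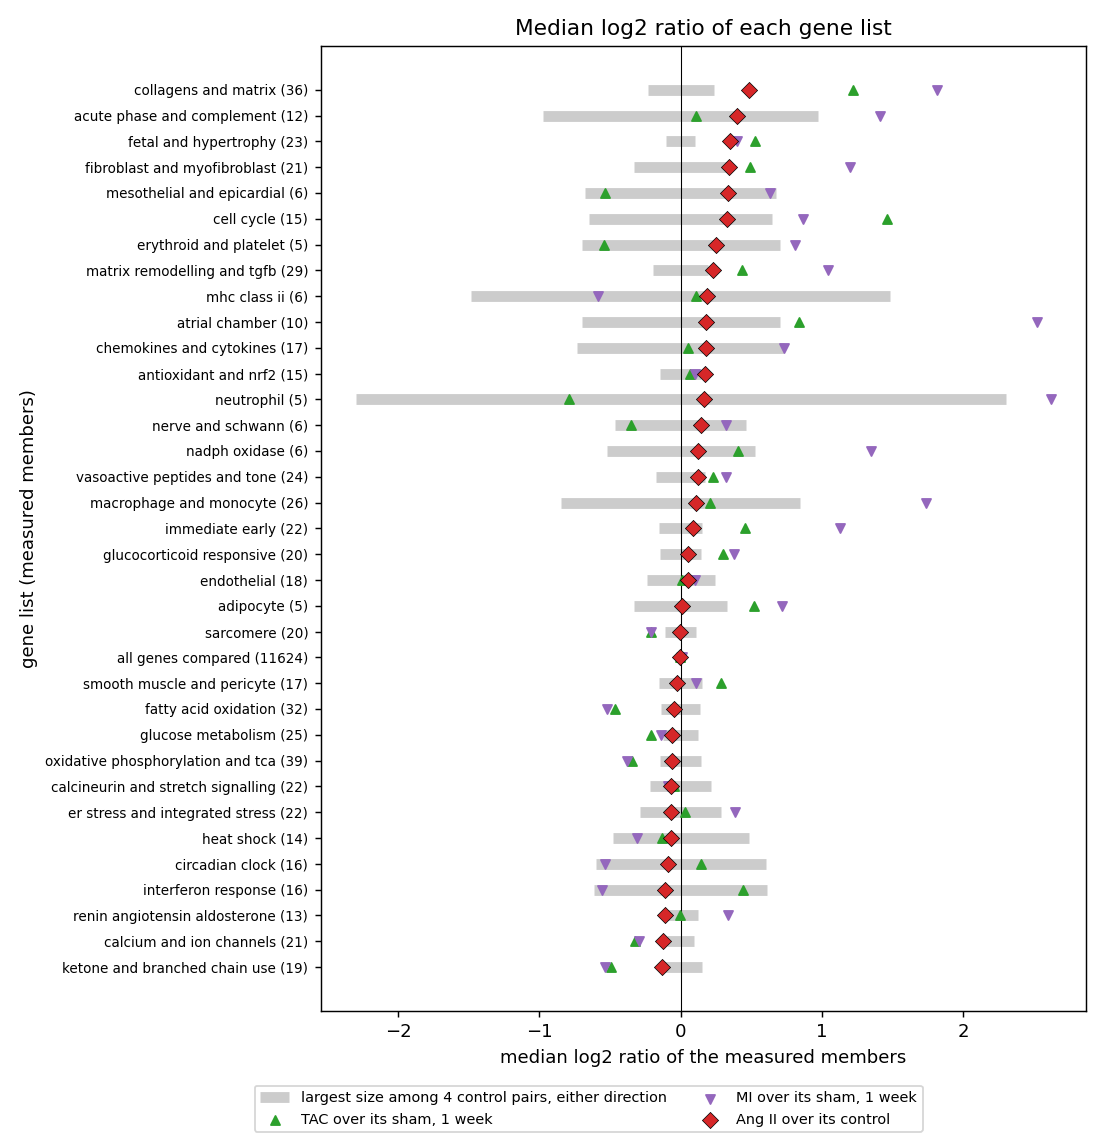
Median log2 ratio of each gene list with at least 4 measured members (number in brackets) for Ang II over its control, TAC and MI over their shams at 1 week; grey bars reach the largest size among 4 same-time control pairs in either direction. The matrix (0.48) and fetal (0.35) medians with Ang II lie beyond the grey bars, while those of fuel use stay inside them.

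Of 37 lists, 6 had a median larger in size than that of every same-time control pair, 5 of them higher. These were matrix, fetal, fibroblast, matrix remodelling and antioxidant genes on the higher side and calcium and channel genes on the lower. Over the mean of the 2 shams, the matrix (0.27) and fetal (0.30) medians were again larger than between controls, while those of fibroblast (0.06), matrix remodelling (0.10), antioxidant (0.10) and calcium and channel genes (-0.06) were not. The 15 antioxidant and NRF2 targets had a median of 0.17 with at most 0.15 between controls, and Gclm, the modifier of glutathione synthesis, read 200 against 129, 152 and 173 (0.62). All other lists lay inside the control differences. The counts in brackets that follow are members above and below all 6 controls, against 13.9% and 11.9% of all genes compared. Among lists of stress and growth the median was 0.33 for 15 cell cycle genes (7 above all 6 controls and 0 below), 0.09 for 22 immediate early genes (6 and 0), 0.05 for 20 glucocorticoid-responsive genes, -0.07 for 14 heat shock genes, -0.07 for 22 genes of ER and integrated stress (2 and 9), -0.07 for 22 of calcineurin and stretch signalling and -0.09 for 16 clock genes. Among the markers and immune lists it was -0.03 for 17 smooth muscle genes, 0.05 for 18 endothelial genes, 0.18 for 10 atrial genes, 0.01 for 5 adipocyte genes, 0.33 for 6 mesothelial genes, 0.25 for 5 erythroid and platelet genes and 0.14 for 6 nerve genes. It was also 0.17 for 5 neutrophil genes, 0.18 for 17 chemokines and cytokines, 0.40 for 12 acute phase and complement genes, -0.11 for 16 interferon genes, 0.19 for 6 MHC class II genes and 0.12 for 6 NADPH oxidase genes. Lymphocyte, mast cell and neighbouring tissue lists had 3, 3 and 2 measured members, with medians of 0.16, 0.28 and 1.24.

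The well measured Ang II genes were then set beside TAC and MI at 1 week, comparisons with which the Ang II pair shares no array. At 1.5-fold, ratio alone, 3.99% of well measured genes were higher and 2.76% lower with TAC, and 9.14% were higher and 7.33% lower with MI. Of the 51 genes higher with Ang II, 30 were also 1.5-fold higher with TAC (58.8% of the Ang II set and 10.8% of the TAC set), and 29 were with MI (56.9% and 4.54%). Their median log2 ratio was 0.72 with Ang II, 0.92 with TAC and 0.68 with MI. Of the 28 lower genes, 3 were also lower with TAC (10.7%) and 4 with MI (14.3%). The rule for the Ang II genes uses the same shams as part of its range, so the overlap was also counted on the ratio alone. Of 92 higher genes, 40 were then shared with TAC (43.5%) and 48 with MI (52.2%), and of 53 lower genes 9 (17.0%) and 10 (18.9%). Both counts keep the limit of a mean signal above 100, which takes in the TAC and MI arrays. A gene can thus enter through high values there, which favours overlap of the higher genes and opposite directions for the lower ones. Dkk3, for example, read 97.4 with Ang II and 54.7 to 79.0 over the 6 controls, but 201 with TAC and 393 with MI at 1 week. Across the 6995 genes, which are not independent replicates, Pearson's r was 0.31 with TAC and 0.30 with MI, and Spearman's rho 0.24 and 0.22.

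Of the 51 higher genes, the ratio was larger than with Ang II in 28 with TAC and in 27 with MI. Postn had log2 ratios of 1.05 with Ang II, 2.71 with TAC and 2.60 with MI, and Myh7 had 0.90, 2.23 and 3.75. Nppa had 0.73, 2.42 and 2.91, and Col8a1 0.88, 2.11 and 2.37. Fhl1 was alike in size in the 3 models, at 0.69, 0.69 and 0.55. Thbs4 was at 0.79, 1.79 and 0.89, and Nmrk2 at 1.45, 2.52 and 1.94. Each of these is a ratio of single arrays, and differences between the models were not tested.

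**Figure D4:**
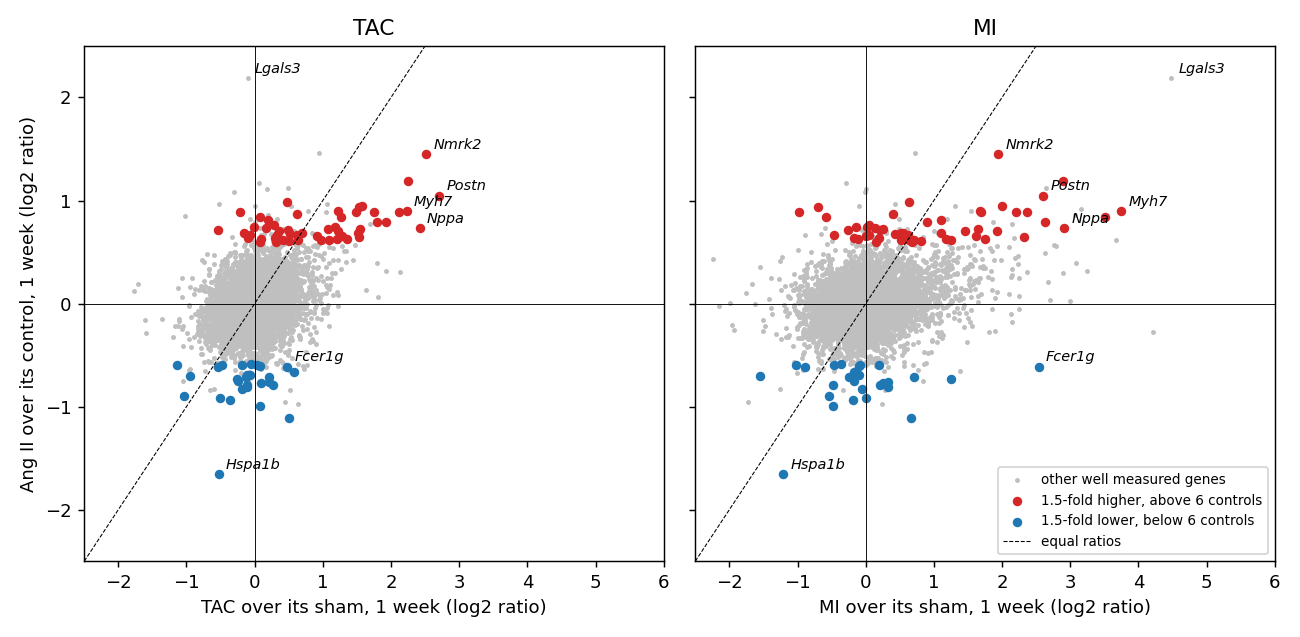
Log2 ratio of Ang II over its control against that of TAC (left) and MI (right) over their shams at 1 week, 1 point per well measured gene; red and blue points are the 51 higher and 28 lower Ang II genes. Postn, Myh7, Nppa and Nmrk2 lie right of the dashed line of equal ratios in both panels, and Fcer1g is lower with Ang II (-0.61) and higher with MI (2.54).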

How the data were processed

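Total RNA of mouse left ventricle was measured on 12 Affymetrix arrays of 1 colour. The deposited values are intensity, a linear signal per probe set, and GCOS is the tool named in the submitters' processing notes, with no version. How GCOS was set, and whether the authors scaled its output, is not given in the sources used here. Trimmed means differed by 24.4% over the arrays, so signals were scaled to a common 2% trimmed mean, floored at the 20th percentile (4.54) and logged (log2). Of 45101 probe sets, 34958 had 1 gene symbol in the platform annotation, 932 had several and 9211 were not listed, and no symbol differed from RefSeq's among the 34754 whose Entrez identifier was found there. Each gene took the values of its brightest probe set, and those with a mean signal above 18.1, which is the 40th percentile over named probe sets, were compared. Of the values compared, 0.183% were at the floor. No depth can be given for arrays, and their number limits the precision.

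The pairs follow the sample labels, and p-values measure only how these arrays spread, which may be technical in part. The Ang II array was fitted against the 3 controls at 1 week with limma 3.58.1 in R 4.3.3 (lmFit, eBayes with an intensity trend, Benjamini-Hochberg at 0.05 over all genes compared), a procedure checked on simulated data. Lists are described by medians and counts without a test, and 1 gene of the renin-angiotensin list is not reported here.

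The pair, the 37 gene lists and the rules were chosen with earlier results of these data known. The rule for named genes takes the 15 highest and 15 lowest 2-fold ratios, the 5 highest and 5 lowest ratios inside the controls, the 10 smallest limma p in each direction, the 3 largest members of each list, and any measured member of the renin-angiotensin, vasoactive, fetal and matrix lists. The limit for well measured genes (mean signal above 100, 1.5-fold) was added after seeing the data, and genes named through it, and other members named outside the rule, were chosen after their values were seen. Alternatives concern scaling, floor, filter, probe sets, the control used and the test.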

Additional observations from a re-analysis of the deposited data

Results flagged for a closer look

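In all, 7 well measured genes had ratios of at least 1.5-fold in opposite directions with Ang II and with MI at 1 week, each a ratio of single arrays, and the difference was not tested. Of the 51 genes higher with Ang II, 3 were 1.5-fold lower with MI, against 7.33% of all well measured genes. Of the 28 lower genes, 4 were 1.5-fold higher with MI, against 9.14%. With TAC at 1 week, none of these genes was 1.5-fold in the opposite direction. Fcer1g, a chain of Fc receptors in myeloid cells, had a log2 ratio of -0.61 with Ang II (64.9 against 99.0) and 2.54 with MI. Its controls ran from 86.7 to 121. The mean signal by which it counts as well measured takes in 507 with MI at 1 week and 340 with TAC at 1 day. Its place here thus rests in part on the MI value it is set against. Gfpt2, of the hexosamine pathway, had -0.73 and 1.25, and Birc3, an inhibitor of apoptosis, had -0.71 and 0.71. Sec24b had -1.11 and 0.67, though its second probe set gave -0.04 with Ang II. In the other direction, Enho, which encodes the peptide adropin, had 0.89 with Ang II and -0.98 with MI, Tfb1m, a mitochondrial ribosomal RNA methyltransferase, had 0.84 and -0.59, and 3110040M04Rik had 0.93 and -0.71. The next brightest probe sets of Enho and Tfb1m gave 0.26 and 0.33 with Ang II. For Enho, Gfpt2 and 3110040M04Rik the Ang II ratio was smaller than the largest difference between the 3 controls at 1 week.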

How the results depend on the processing

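No paired analysis was possible because each group holds 1 array. A gene ratio is said to have moved when it shifted by more than the largest difference between the 3 controls at 1 week. The mean of these controls or of the 2 shams cannot shift it further than that. By this rule another control could therefore neither move a gene ratio nor reverse a called one, and all 286 stayed the same there. For a list median the limit was its largest size in the 4 same-time control pairs. Of 286 named gene ratios, 227 did not move or reverse under the alternatives of scaling, floor and probe sets and 59 did, with 84 values moved and 3 reversed. The reversed ones were Clba1 (-0.18 under a floor at the 10th percentile) and Id4. Id4 came to 0.94 under a floor at the 40th percentile, and to 0.85 when 16 was added to the signal in place of a floor. Without these changes, a slightly dimmer probe set of Clba1 gave the same ratio of -0.18. The other probe sets of Id4, also close in brightness, gave positive ratios. Whether a change of the brightest probe set was the cause was not tested. Of 37 list medians, 32 did not move. Averaging a gene's probe sets brought the fetal median to 0.15, and the mean of the 3 controls brought that of antioxidant genes from 0.17 to 0.02. The mean of the 2 shams turned the renin-angiotensin median from -0.11 to 0.08, that of ketone and branched-chain use from -0.13 to 0.04 and that of acute phase genes from 0.40 to -0.58. When only the 3 controls at 1 week were used, 15 of 23 fetal and 18 of 36 matrix members lay above them. Lying above 3 arrays is easier than above 6, and the share over all genes was not counted, so these are not stronger results. With 16 added, 33 genes were 2-fold higher and 29 lower. Without the filter on dim genes 18194 genes were compared, and 212 were 2-fold higher and 119 lower. Of the 200 genes, 60 were also called with 16 added, 180 with signals as deposited, 184 after quantile normalization, 99 against the mean of the 3 controls and 70 against the mean of the 2 shams. Well measured genes numbered 43 higher and 46 lower against the mean of the 3 controls and 76 and 60 against that of the 2 shams. At a mean signal above 200, a limit that takes in fewer genes, there were 27 higher and 7 lower. The limma count was 249, all higher, without the filter on dim genes, 0 to 36 when 1 control was left out (36 without the Ang II control, 5 without the TAC sham, 0 without the MI sham), and 0 under every other setting run. With the 6 controls as 1 group 417 genes had an unadjusted p under 0.05. With 1 array a side, dim genes and small ratios cannot be told from array to array differences.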

Other observations

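Of 22 measured genes of ER and integrated stress, 9 were below all 6 controls and 2 above, against 11.9% and 13.9% of all genes compared. The list's median of -0.07 lay inside the control differences, which reached 0.29. Among the members, Hspa5, the main chaperone of the compartment, read 1856 with Ang II, 2228 in its control, 2325 in the TAC sham and 3090 in the MI sham, and Manf, a secreted stress-induced protein, read 436 against 502, 516 and 711. Pdia3, a disulfide isomerase, read 690 against 723, 1010 and 1001. In these 3 genes the infusion control was also below both shams.

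Cell cycle genes were dim, with 7 of 15 measured members above all 6 controls and 0 below, against 13.9% and 11.9% of all genes compared. Their median of 0.33 lay inside the control differences, which reached 0.65. Mki67, a marker of cycling cells, read 87.7 with Ang II, 59.8 in its control, 20.5 in the TAC sham and 55.4 in the MI sham, and Top2a, a topoisomerase of dividing cells, read 67.2 against 39.7, 36.7 and 55.4. The log2 ratios of Mki67 were 0.55 with Ang II, 3.23 with TAC and 1.97 with MI at 1 week. Among immediate early genes, Egr3 read 63.8 against 34.7, 35.6 and 34.4, and Egr1 read 464 against 214, 502 and 157, inside the controls. Clock genes differed more between controls than within the Ang II pair. Dbp, an output gene of the clock, read 2013 with Ang II and 2051 in its control, but 783 in the TAC sham and 1247 in the MI sham.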
